A study of Mus musculus with 9 samples.

Results

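Firre, Hnrnpu, Ptbp1, Ptbp2 and Ptbp3 are a nuclear long noncoding RNA, the scaffold protein known to bind it, and the polypyrimidine tract-binding (PTB) family of splicing regulators. They were taken from the count table as the rows whose Ensembl identifiers map to these symbols on mouse build mm10. That gave 5 of 55487 gene rows, and all 5 were among the 15633 genes with enough counts to be tested. RNA came from isolated mouse cardiomyocytes, the contractile cells of the heart, in 3 groups of 3 libraries labelled as biological replicates. The OE_LncFirre group received an AAV9 vector carrying Firre (AAV9, an adeno-associated virus, enters heart muscle cells readily), the VC group received the AAV9 control vector, and the NC group is labelled only as blank. The genotype, strain, age and sex of the animals, any pooling of them, the promoter and Firre isoform in the vector, its dose and the time after infection are not given in the labels.

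Firre is transcribed from the X chromosome and stays largely in the nucleus, and it takes its name from a sequence that recurs along the transcript. In mouse stem cells that repeat binds HNRNPU, also called SAF-A, a nuclear matrix protein that holds RNA on chromatin, and the Firre locus has been placed near genes on other chromosomes. PTB proteins bind pyrimidine-rich RNA around UCUU and CUCUCU motifs and mostly repress the exons next to them. PTBP1 is the widespread form, PTBP2 the form best known from neurons, and PTBP3 was first described in blood cells. PTB levels are known to fall as muscle and nerve cells mature, and PTBP1 represses an exon in its own mRNA and in that of Ptbp2, which sends the shortened mRNAs to nonsense-mediated decay.

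The repeat in Firre is shown first because it carries both a known HNRNPU contact and a short pyrimidine motif of the kind PTB proteins recognise. GENCODE M21 (GRCm38, the assembly called mm10) lists 10 Firre transcripts at chrX:50555744-50635321 on the minus strand, and the longest, Firre-206, has 5555 bases in 20 exons. Of its 14 exons of 120 to 180 bases, 8 were copies of a single unit, with a pairwise identity of 91.0% to 98.7% (median 96.1%). They held 1228 bases, or 22.1% of the transcript. Each copy contained TCTT exactly 1 time, always starting 28 bases from the 3′ end of the exon, and 33 of the last 35 positions were the same in all 8. Below are the shortest copy and a pair of longer ones, read 5′ to 3′ on the minus strand with TCTT in capitals, followed by the shared last bases with n where copies differ. The letters are working names in transcript order.
Firre exon C, chrX:50612705-50612850: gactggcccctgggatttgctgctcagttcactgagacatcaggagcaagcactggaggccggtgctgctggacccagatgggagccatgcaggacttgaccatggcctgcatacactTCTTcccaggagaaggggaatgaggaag
Firre exon F, chrX:50600744-50600898: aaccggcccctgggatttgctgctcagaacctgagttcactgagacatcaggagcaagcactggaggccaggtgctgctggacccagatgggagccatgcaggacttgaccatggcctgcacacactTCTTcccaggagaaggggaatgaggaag
Firre exon L, chrX:50577871-50578024: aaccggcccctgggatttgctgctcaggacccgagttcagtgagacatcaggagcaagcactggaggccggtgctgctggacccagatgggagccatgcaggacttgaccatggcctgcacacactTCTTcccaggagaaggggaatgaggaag
Shared end of the 8 copies: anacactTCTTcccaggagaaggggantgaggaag

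**Figure D1:**
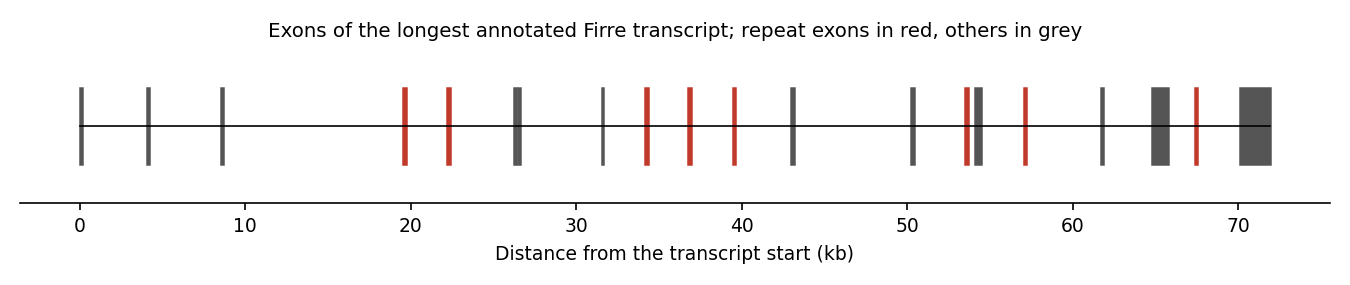
Exons of Firre-206 drawn to scale along the gene, with the distance from the transcript start in kb on the x axis. The 8 repeat exons, in red, are spread through the inner part of the gene and are separated by introns and by other exons, in grey.

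The whole transcript was not rich in these motifs. On the sense strand Firre-206 held 30 TCTT matches, 5.4 per kb, and 71.7% of 757 long noncoding transcripts of 4000 to 7000 bases held more per kb (median 6.49). CTCTCT matched 3 times, 0.54 per kb against a median of 0.57, and 88.9% of those transcripts hold it at least 1 time. Cytosine and thymine made up 48.5% of the Firre bases against a median of 50.2%. A match describes letters, not a bound site. The counts are per gene, so reads from single exons cannot be told apart in them, and neither can vector-made Firre from Firre made by the cells' own gene.

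The exon that PTBP1 represses in its own mRNA and in that of Ptbp2 has a sequence match in Ptbp3. It is shown next because changes in PTB mRNA are usually read with it in mind. A 34-base exon occurred in all 3 genes, and capitals mark the 19 bases that are the same in all of them. Its length leaves a remainder of 1 after division by 3, so leaving it out shifts the reading frame.
Ptbp1 exon, chr10:79862014-79862047: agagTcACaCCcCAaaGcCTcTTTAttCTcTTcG
Ptbp2 exon, chr3:119724612-119724645: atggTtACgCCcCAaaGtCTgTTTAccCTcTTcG
Ptbp3 exon, chr4:59485339-59485372: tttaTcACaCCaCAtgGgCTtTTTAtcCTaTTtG
Ptbp1 (chr10:79854427-79864771) is on the plus strand, and Ptbp2 (chr3:119718742-119784466) and Ptbp3 (chr4:59471868-59549364) are on the minus strand. In GENCODE M21, 4 Ptbp1 transcripts carry the exon and 2 skip it, both of the nonsense-mediated decay type. For Ptbp2, 3 carry it and 3 skip it, with nonsense-mediated decay and retained intron types among the latter. For Ptbp3, 9 carry it and 0 skip it. The counts do not resolve which form was made. Over their coding sequences Ptbp1 and Ptbp2 were 68.6% identical, Ptbp1 and Ptbp3 72.2%, and Ptbp2 and Ptbp3 67.4%, with no shared run longer than 20 bases, so 150-base reads from one would not align equally well to another.

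Gene counts per library ranged from 15591542 to 22697016, and the pairs of replicates differed by more than sampling noise. Levels below are CPM, each count over its library's TMM-adjusted total, and CPM per kb of annotated exon where genes are compared with each other. Tests are edgeR's quasi-likelihood F test, with p-values adjusted by the Benjamini-Hochberg method over all 15633 genes and a threshold of 0.05. Separate animals or cultures are not stated, so a p-value here reflects the spread among these libraries alone, and that spread may be technical. The labelled cell type was checked against markers. Summed over 10 genes, cardiomyocyte markers reached 37450 to 39130 CPM in NC, 36530 to 39340 CPM in VC and 57140 to 59940 CPM in OE_LncFirre. Fibroblast markers (8 genes) reached 9705 to 10170 CPM, 9694 to 9898 CPM and 4444 to 4987 CPM in the same order, so the controls also held RNA of other heart cells. Xist, the RNA of the inactive X chromosome, was at 285 to 386 CPM and 4 Y-linked genes summed to 77.8 to 98.0 CPM across the 9 libraries, so each library held RNA of both kinds.

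Per length, Ptbp1 and Hnrnpu were the abundant members and Firre and Ptbp2 the scarce ones. In the VC group Ptbp1 stood at 63.0 ± 3.11 CPM per kb, Hnrnpu (chr1:178321108-178337797, minus strand) at 55.0 ± 0.288, Ptbp3 at 16.2 ± 0.718, Firre at 4.03 ± 0.128 and Ptbp2 at 3.83 ± 0.478 (SD, n = 3). Firre and Ptbp2 overlapped in range there, and the other neighbours in this order did not. The same order held in NC, with Firre at 4.10 ± 0.420 and Ptbp2 at 3.89 ± 0.535 CPM per kb. In OE_LncFirre, Hnrnpu came first at 49.3 ± 0.960 CPM per kb and Ptbp1 second at 35.9 ± 1.76, Ptbp3 stood at 9.34 ± 0.698, Firre at 7.89 ± 0.487 and Ptbp2 at 3.37 ± 0.388. Per kb, Hnrnpu and Ptbp1 had exchanged places without overlap, and Firre had come up to just below Ptbp3. The order rests on the exon length over all annotated transcripts, 11599 bases for Hnrnpu and 4740 for Ptbp1. In CPM, Hnrnpu was above Ptbp1 in every group, at 638 against 298 in VC and 572 against 170 in OE_LncFirre.

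Firre was the member that rose. Its libraries read 34.03, 37.2 and 30.2 CPM in NC, 32.5, 34.4 and 32.7 CPM in VC, and 62.9, 69.7 and 62.6 CPM in OE_LncFirre, from 529 to 762 counts per control library and 1198 to 1543 per Firre library. All 3 Firre libraries lay above all 6 controls. The groups did not overlap for 62.4% of all tested genes against VC and for 60.5% against NC. Such a separation is therefore common here and does not by itself check the group labels. The rise over VC was 0.97 on the log2 scale (95% interval 0.83 to 1.11, edgeR adjusted p = 4.74e-13), and 5.46% of the tested genes rose more. In each of the 3 groups Firre was highest in replicate 2, which was also the library with the most gene counts of its group. The part of depth in that order was not tested.

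Ratios of Firre to Ptbp1 and to Hnrnpu differed between OE_LncFirre and VC by more than the level of Firre did. Per kb, Ptbp1 stood at 16.4 ± 2.20 times Firre in NC, 15.7 ± 1.25 times in VC and 4.56 ± 0.290 times in OE_LncFirre. For Hnrnpu the figures were 13.02 ± 1.48, 13.7 ± 0.430 and 6.27 ± 0.437. The ratio of Firre to Ptbp1 was 3.43-fold higher in OE_LncFirre than in VC, and that of Firre to Hnrnpu 2.18-fold higher, and neither overlapped between the groups. Of 5 ratios tested, each of these had p = 0.1 in an exact two-sided permutation test of 3 libraries against 3, which is the smallest p that design allows, and 0.125 after Benjamini-Hochberg adjustment over the 5. These are ratios of RNA, and protein was not measured.

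**Figure D2:**
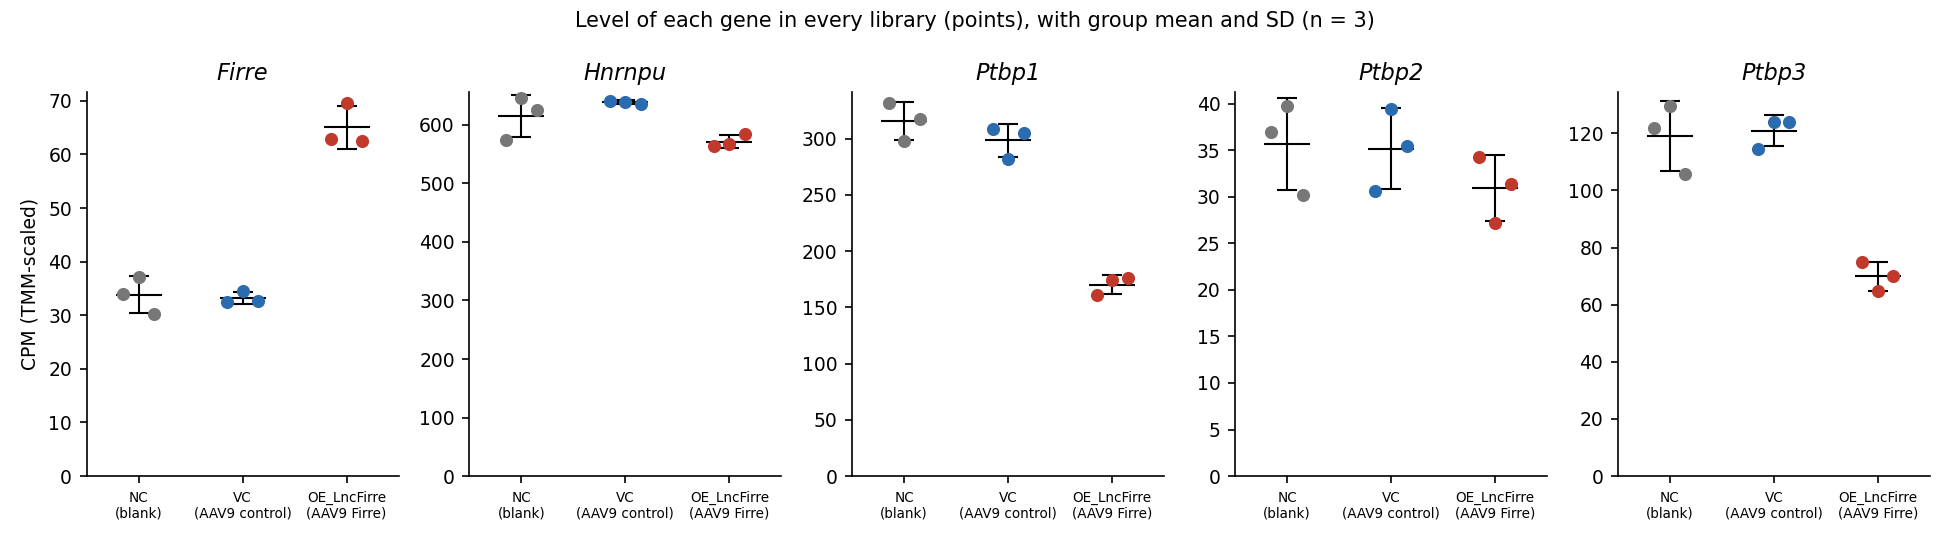
CPM of each of the 5 genes in every library (points), with the group mean and SD (n = 3) as bars, and a y axis from 0 for each gene. Firre is higher and Ptbp1 and Ptbp3 are lower in all 3 OE_LncFirre libraries than in all 6 controls, Hnrnpu is lower by a small step against VC, and the Ptbp2 groups overlap.

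Against VC, 4 of the 5 members passed the test: Firre rose, and Hnrnpu, Ptbp1 and Ptbp3 fell. This is to be read against a comparison in which 56% of all tested genes passed, 27.5% higher and 28.4% lower, so that passing is not by itself unusual. The sizes were unequal, with Ptbp1 and Ptbp3 losing about the same share of their level and Hnrnpu a small one. In 4 of 5 members the groups did not overlap, as for 62.4% of all genes.

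Hnrnpu, the scaffold, changed least among the genes called. It read 575, 645 and 626 CPM in NC, 642, 639 and 635 CPM in VC, and 563, 567 and 584 CPM in OE_LncFirre, from 9002 to 13576 counts. The VC libraries lay close together and all above the Firre libraries, while the lowest NC library fell inside the range of the Firre libraries. The level fell by 10.5% against VC (95% interval -16.0% to -4.54%), a log2 change of -0.16 (SE 0.0453, edgeR adjusted p = 0.00352), and 72.3% of tested genes had a larger change in either direction. Against NC the change was -0.11 with an adjusted p of 0.0466, and 12 of 17 other ways of processing put that p above 0.05. The fall against VC kept its call in all 17.

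Ptbp1, the most abundant of the family, fell further. Its libraries read 332, 298 and 317 CPM in NC, 309, 282 and 305 CPM in VC, and 161, 174 and 176 CPM in OE_LncFirre, from 3175 to 6115 counts. The Firre libraries lay well below all 6 controls. Ptbp1 fell by 42.9% against VC (95% interval -47.0% to -38.6%, edgeR adjusted p = 2.55e-14), and 10.6% of tested genes fell more. It fell by 46.1% against NC (adjusted p = 2.79e-15).

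Ptbp3 fell by a similar share. It read 122, 129 and 106 CPM in NC, 115, 124 and 124 CPM in VC, and 75.1, 64.7 and 69.9 CPM in OE_LncFirre. No Firre library reached any control. Ptbp3 fell by 42.2% against VC (95% interval -47.5% to -36.5%), a log2 change of -0.79 (SE 0.0666, edgeR adjusted p = 1.21e-10), and 10.9% of tested genes fell more. It fell by 41.3% against NC (adjusted p = 2.24e-10).

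Ptbp2, the neuronal form, did not pass the test. It read 37.0, 39.8 and 30.2 CPM in NC, 30.6, 39.4 and 35.5 CPM in VC, and 34.2, 27.1 and 31.3 CPM in OE_LncFirre, from 529 to 837 counts. The groups overlapped, and within each the libraries differed by more than their group means did. The log2 change against VC was -0.19 with a 95% interval of -0.43 to 0.05 (SE 0.113, edgeR adjusted p = 0.17), which in percent runs from -25.9% to 3.68%. Against NC it was -0.21 (adjusted p = 0.131). Leaving out VC replicate 1, the lowest VC library, brought a call against VC (-0.28, adjusted p = 0.0336), and leaving out NC replicate 3, the lowest NC library, brought a call against NC (-0.32, adjusted p = 0.0096). Without the low-count filter Ptbp2 was called lower against both VC (-0.19, adjusted p = 0.0351) and NC (-0.21, adjusted p = 0.019).

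Between the controls none of the 5 members passed, in a comparison where 0.0576% of genes (9 of 15633) did by edgeR and 1331 had an unadjusted p under 0.05. DESeq2 called 22 genes there and limma-voom 5, and over all 17 alternatives the lowest adjusted p of a member was 0.37. The log2 changes from NC to VC were -0.03 for Firre (adjusted p = 0.954), 0.05 for Hnrnpu (0.792), -0.08 for Ptbp1 (0.697), -0.02 for Ptbp2 (0.98) and 0.02 for Ptbp3 (0.962). The groups overlapped for each of the 5, while they did not for 13.1% of all genes. The lowest unadjusted p of a member was 0.12, for Ptbp1. The 95% interval for Ptbp1, -0.19 to 0.02, runs in percent from -12.1% to 1.58%. Against NC, 4 of 5 members passed in OE_LncFirre, in a comparison where 56.3% of genes did, and 3 did not overlap, as for 60.5% of genes. The comparisons with VC and with NC share the Firre libraries, so they are not independent.

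**Figure D3:**
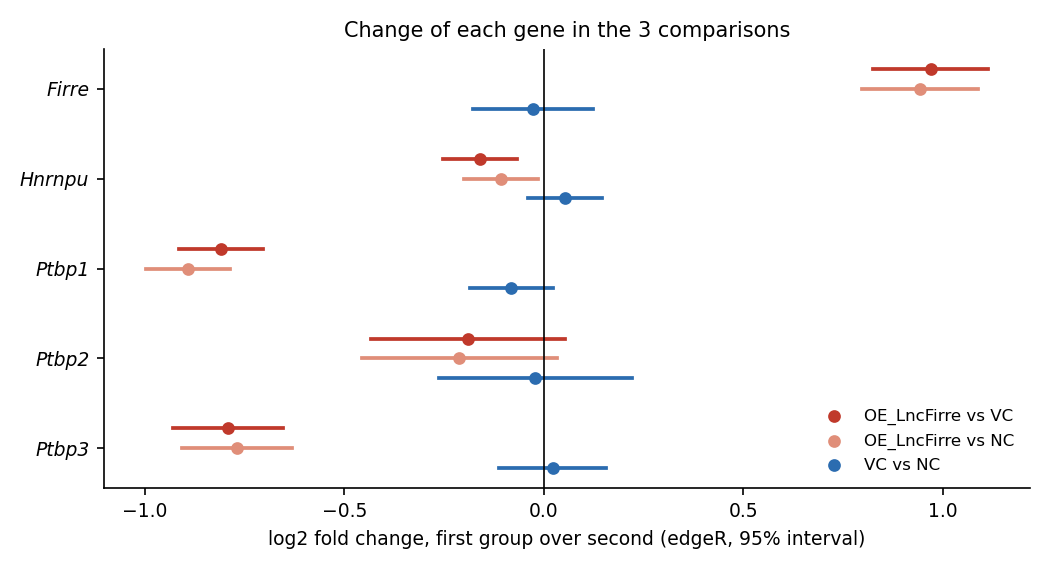
Log2 fold change of each gene with its 95% interval from edgeR in the 3 comparisons (x axis). The VC against NC intervals, in blue, all include 0, the Firre intervals against either control lie near 1, those of Ptbp1 and Ptbp3 lie between -1.0 and -0.6, and those of Ptbp2 include 0.

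The PTB family as a whole was lower in OE_LncFirre, and Ptbp2 took a larger share of it in all 3 Firre libraries than in the controls. The summed level of the 3 genes was 86.4 ± 3.42 CPM per kb in NC, 82.9 ± 2.37 in VC and 48.6 ± 1.13 in OE_LncFirre, and it fell by 41.4% against VC with no overlap (the sum itself was not tested). Ptbp1 made up 77.1% ± 2.49, 75.9% ± 1.86 and 73.8% ± 2.495 of it, with overlap between all groups. Ptbp2 made up 4.50% ± 0.613, 4.63% ± 0.684 and 6.93% ± 0.855, with 3.99% to 5.35% in the VC libraries and 6.12% to 7.82% in the Firre libraries. Ptbp3 stayed at 18.4% ± 1.88, 19.5% ± 1.18 and 19.2% ± 1.65.

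Within a library, where scaling cancels, the ratio of Ptbp2 to Ptbp1 was 1.54-fold higher in OE_LncFirre than in VC without overlap. Its exact two-sided permutation p was 0.1, the smallest that 3 against 3 allows, and 0.125 adjusted over the 5 ratios. Ptbp1 fell between these groups, and Ptbp2 was called lower in only some of the alternatives given above. For Ptbp3 to Ptbp1 the log2 difference was 0.02 with overlapping groups (exact p = 1), and between -0.08 and 0.09 with any single library left out. In the controls this ratio varied from library to library: Ptbp1 was 3.64 times Ptbp3 per kb in NC replicate 2 and 4.74 times in NC replicate 3. The ratio of Hnrnpu to Ptbp1 was 1.57-fold higher in OE_LncFirre, without overlap (exact p = 0.1, adjusted 0.125).

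**Figure D4:**
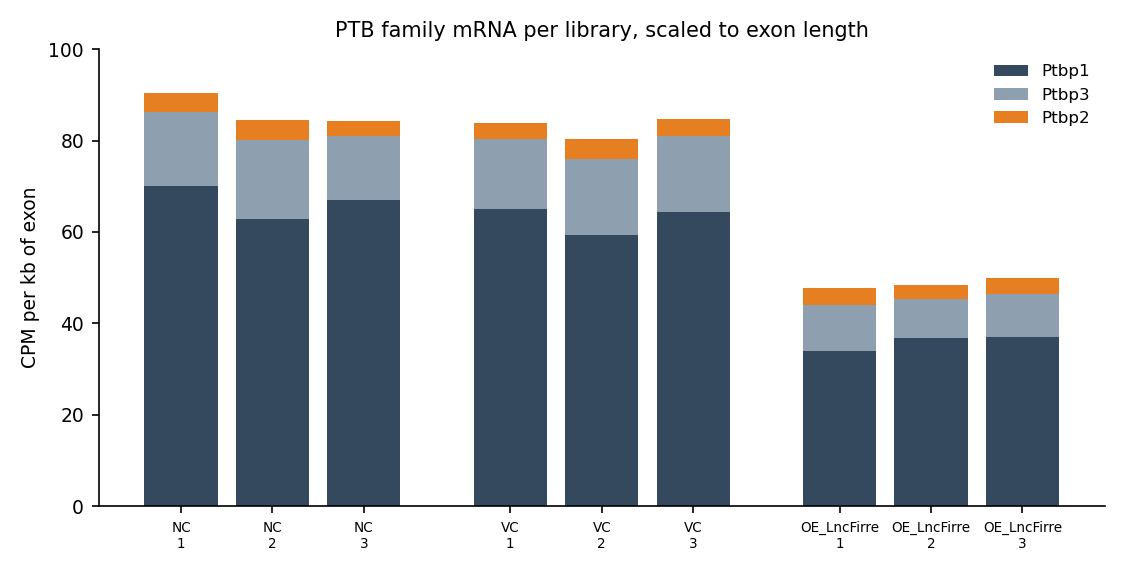
Stacked levels of Ptbp1, Ptbp3 and Ptbp2 in CPM per kb of exon (y axis) in each of the 9 libraries. The stacks reach 80.3 to 90.4 in the controls and 47.7 to 49.9 in OE_LncFirre, and the Ptbp2 part, in orange, takes a larger share of the shorter stacks.

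Markers of other cell types moved with the same groups. Counts here and in the lists below stand beside 27.5% higher and 28.4% lower of all tested genes against VC. Against NC, 56.3% of all genes passed. Against VC, 8 of 8 fibroblast, 8 of 8 macrophage, 7 of 7 endothelial, 5 of 5 epicardial and mesothelial and 6 of 6 smooth muscle and pericyte markers fell, as did 3 of the 5 tested of 8 neuron and Schwann cell markers, while 10 of 10 cardiomyocyte markers rose (median log2 change 0.69, and 9 of 10 with libraries scaled by their totals alone). Endothelial markers summed to 764 to 800 CPM in NC, 706 to 720 CPM in VC and 252 to 265 CPM in OE_LncFirre. Smooth muscle and pericyte markers summed to 2728 to 3055 CPM, 2530 to 2900 CPM and 1177 to 1320 CPM. Macrophage markers summed to 82.9 to 96.6 CPM, 65.5 to 70.6 CPM and 10.2 to 12.0 CPM, and C1qa, a complement gene of macrophages, was at 0 counts in all 3 Firre libraries. Epicardial markers summed to 171 to 187 CPM, 193 to 208 CPM and 44.2 to 46.7 CPM, and neuron and Schwann cell markers to 15.5 to 17.5 CPM, 19.1 to 19.4 CPM and 10.5 to 12.0 CPM. All 10 proliferation genes fell as well (median -0.95), among them Mki67 (-1.15), Top2a (-0.91) and Cdc20 (-1.21), with sums of 602 to 616 CPM, 545 to 606 CPM and 291 to 321 CPM. The part of these shifts in the changes of Ptbp1, Ptbp3, Hnrnpu and Firre was not tested, and in bulk RNA fewer cells of a type and less RNA per cell cannot be told apart.

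Among the other hnRNPs, the nuclear RNA-binding proteins to which Hnrnpu and Ptbp1 belong, more fell than rose. Of 20 tested, 1 rose and 12 fell against VC, with a median of -0.19 beside 0.00 for all genes and a range of -0.50 to 0.39. Against NC, 2 rose, 8 fell and 10 did not pass. Their summed level was 3889 to 4007 CPM in NC, 3933 to 4005 CPM in VC and 3438 to 3500 CPM in OE_LncFirre. Hnrnpa1, an abundant splicing repressor, fell from 333 ± 11.6 to 235 ± 8.84 CPM (log2 change -0.50, adjusted p = 9.03e-11). Hnrnph1, which binds G-rich RNA, fell from 223 ± 7.38 to 159 ± 2.67 CPM (-0.49), and Hnrnpd, which binds AU-rich mRNA ends, from 108 ± 4.09 to 78.2 ± 4.31 CPM (-0.46). The falls of Ptbp1 and Ptbp3 were each larger than that of any gene on this list, and the fall of Hnrnpu was smaller than the list's median.

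The nuclear matrix proteins that share Hnrnpu's compartment were divided. Of 11, 1 rose, 4 fell and 6 did not pass against VC, beside 27.5% higher and 28.4% lower of all genes. The median was -0.02, and 2 rose and 4 fell against NC. Sfpq, a paraspeckle protein, fell from 272 ± 5.29 to 204 ± 8.07 CPM (-0.41, adjusted p = 3.29e-08), and Khdrbs1, the splicing factor SAM68, fell by 0.25 on the log2 scale. Safb, a scaffold attachment factor like Hnrnpu, rose from 108 ± 6.69 to 124 ± 4.74 CPM (0.20, adjusted p = 0.0029). Proteins tied to Firre's place in the nucleus, CTCF, cohesin and nucleolar or lamina anchors, gave 0 higher and 7 lower of 14 against VC (median -0.10) and 2 higher and 8 lower against NC. Ctcf, which anchors the chromatin loops of the locus, fell from 62.9 ± 1.70 to 53.9 ± 0.768 CPM (-0.22, adjusted p = 0.00118). Lmnb1, a lamina protein, fell from 77.2 ± 2.17 to 44.3 ± 2.45 CPM (-0.80), Npm1 of the nucleolus by 0.34 and Ncl, nucleolin, by 0.20 on the log2 scale.

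Proteins that share pyrimidine-rich targets with PTB were mostly not called against VC. Of 13 tested of 14, 1 rose, 3 fell and 9 did not pass, beside 27.5% higher and 28.4% lower of all genes. The median was -0.02, and 2 rose and 5 fell against NC. Hnrnpll, a PTB relative, fell by 0.30 (adjusted p = 3.53e-05) and U2af2, which binds the pyrimidine tract at splice acceptors, by 0.25 on the log2 scale (3.72e-05). Tia1, which binds U-rich RNA, rose by 0.26 (0.00366). The PTB cofactor Raver1 had 0 counts in all 9 libraries and was left out of the test. Whether the gene was silent or its reads went uncounted cannot be told from these counts.

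Muscle and neuronal splicing regulators that act beside PTB moved the other way. Of 11, 8 rose and 1 fell against VC, with a median of 0.36, beside 27.5% higher and 28.4% lower of all genes. Against NC, 9 rose and 1 fell. Rbm24, a muscle splicing activator, rose from 88.3 ± 4 to 196 ± 3.91 CPM (1.15, adjusted p = 4.8e-17). Rbm20, which controls titin splicing in the heart, rose from 154 ± 4.22 to 269 ± 14.4 CPM (0.80), and Rbfox2 from 236 ± 6.05 to 283 ± 14.0 CPM (0.26). Mbnl1, a regulator of postnatal splicing, fell by 0.26 on the log2 scale. Rbm20 and Rbm24 are themselves heart muscle genes, and the cardiomyocyte marker sums above moved with them.

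Of 8 genes known to carry PTB-regulated exons, 6 fell and 1 rose against VC, with a median of -0.68. Of all genes, 28.4% fell and 27.5% rose there. Against NC, 6 of the 8 fell and 0 rose. These are totals per gene and say nothing of which exons were used. Fgfr2, a growth factor receptor with alternative ligand-binding exons, fell from 29.0 ± 0.773 to 7.06 ± 1.15 CPM (-2.04), Flna, an actin crosslinker, from 1835 ± 97.3 to 942 ± 26.9 CPM (-0.96), and Actn1, the non-muscle alpha-actinin, from 1018 ± 68.8 to 657 ± 28.7 CPM (-0.63). Pkm, the pyruvate kinase gene in which PTB helps choose between alternative exons, was at 1707 ± 34.8 and 1744 ± 49.9 CPM (0.03, adjusted p = 0.607). Tpm1, a tropomyosin with PTB-repressed exons, rose from 4119 ± 176 to 4521 ± 145 CPM (0.13, adjusted p = 0.0188), a call lost when libraries were scaled by their totals alone. The falls coincide with those of the non-muscle marker sums, and the part of one in the other was not tested.

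Factors of nonsense-mediated decay, the route that removes exon-skipped Ptbp1 and Ptbp2 mRNA, showed 3 higher and 1 lower of 12 against VC (median 0.06). The other 8 did not pass, while 27.5% of all genes were higher and 28.4% lower. Against NC, 5 factors were higher and 1 lower. Smg5 rose from 125 ± 3.15 to 139.6 ± 3.35 CPM (0.16, adjusted p = 0.00547), while Upf3a fell by 0.44 on the log2 scale (5.92e-05). Upf1, the central helicase, was at 92.2 ± 4.64 and 95.9 ± 6.34 CPM (adjusted p = 0.422). Scaling by library totals alone changed the count against VC to 1 higher and 2 lower, so its direction is not settled.

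Genes placed near the Firre locus in mouse stem cells gave 2 higher and 2 lower of the 4 tested, against VC and against NC alike. Slc25a12, a mitochondrial aspartate-glutamate carrier, rose from 111 ± 2.96 to 176 ± 3.43 CPM (0.67, adjusted p = 6.82e-13) and Ppp1r10, a nuclear phosphatase regulator, from 70.4 ± 5.30 to 86.5 ± 4.45 CPM (0.30). The translation factor Eef1a1 fell by 0.18 and the stress regulator Atf4 by 0.16 on the log2 scale. The 4 tested genes of the X inactivation list had edgeR adjusted p-values of 0.0996 to 0.722 and unadjusted ones of 0.0614 to 0.652, with Xist at 357 ± 2.88 and 369 ± 28.9 CPM (0.05, adjusted p = 0.667). Of 4 X-linked genes with a Y copy, Kdm5c, a histone demethylase gene, rose by 0.29 and Ddx3x, an RNA helicase gene, fell by 0.36, and of 4 Y-linked genes Uty rose by 0.48. Against NC, 2 of the X-linked genes rose and 1 fell, and 2 of the Y-linked genes rose. Among 6 other long noncoding RNAs, 2 rose, Tug1 and 2900097C17Rik (each 0.20), and 1 fell. Malat1 (0.03) and Neat1 (-0.10), which stay in the nucleus as Firre largely does, did not pass. Meg3, an imprinted RNA, fell from 114 ± 5.78 to 48.1 ± 4.85 CPM (-1.24, edgeR adjusted p = 2.07e-16).

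**Figure D5:**
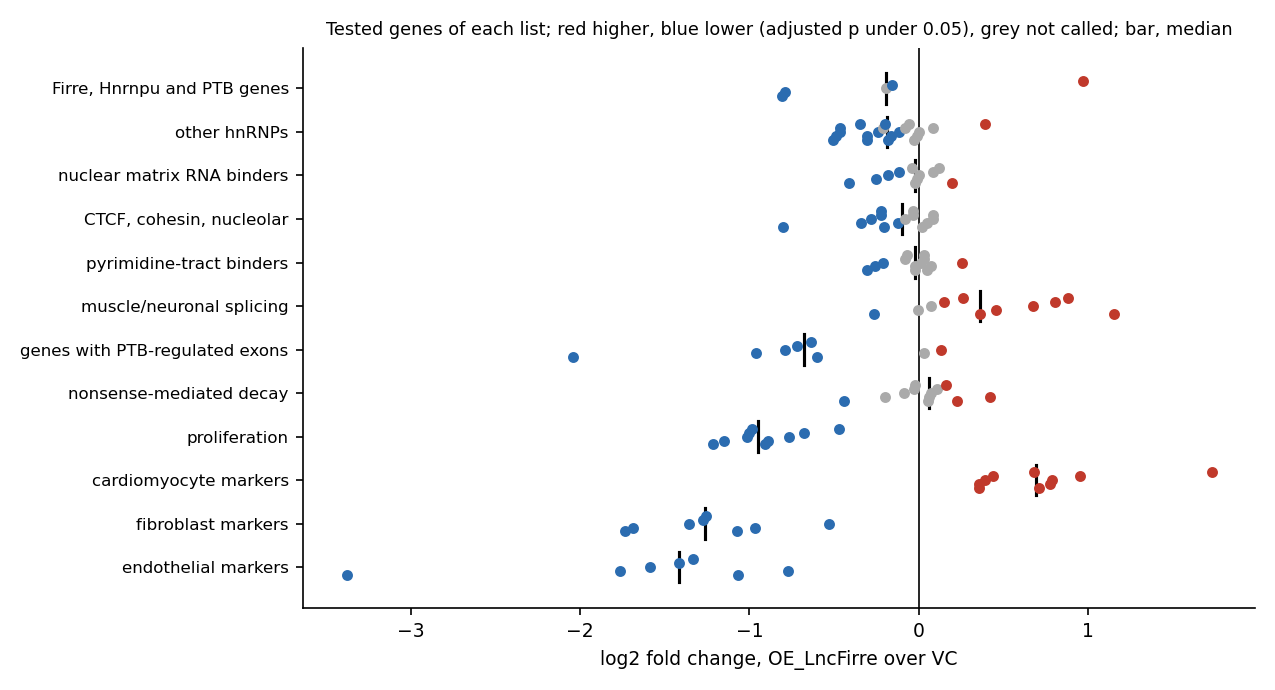
Log2 fold change of OE_LncFirre over VC (x axis) for each member and each tested gene of the lists named on the y axis. Some lists in the text are not drawn. Points are red where higher and blue where lower at an adjusted p under 0.05 and grey where not called. A black bar gives the median of each row. Ptbp1 and Ptbp3 lie to the left of all 20 other hnRNPs, and the splicing regulators of muscle and nerve and the cardiomyocyte markers lie mostly to the right of 0.

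Genes next to the members on their chromosomes moved in either direction. Stk26, a kinase gene 205725 bases from Firre and its nearest tested neighbour, fell from 23.1 ± 0.564 to 5.79 ± 0.874 CPM (-1.99, adjusted p = 3.38e-15), while Rap2c, farther on the same side, was at 33.8 ± 1.47 and 38.3 ± 3.95 CPM (0.18, adjusted p = 0.0524). On the other side, Igsf1 rose by 0.62 and Gm14719 fell by 0.70 on the log2 scale. Cox20, a gene for assembly of cytochrome oxidase that overlaps Hnrnpu by 1586 bases on the other strand, rose from 36.0 ± 1.64 to 67.5 ± 3.79 CPM (0.91) as Hnrnpu fell. Efcab2, beyond the start of Hnrnpu, rose from 10.6 ± 1.02 to 24.9 ± 1.40 CPM (1.23). Whether the counting used strand is not stated. Cox20 averaged 723 counts in VC and 1370 in OE_LncFirre, Hnrnpu averaged 11841 over all libraries, and the part of the overlap in the Hnrnpu value was not tested. Hsdl2, next to Ptbp3, rose from 59.2 ± 5.80 to 171 ± 3.87 CPM (1.53, edgeR adjusted p = 1.58e-19). On the other side of Ptbp3 the nearest tested gene, Susd1, did not pass (0.31, adjusted p = 0.446). Ugcg, farther on that side, fell by 0.77 on the log2 scale. Gm38300 near Hnrnpu, Gm19810 near Ptbp1 and Dpyd near Ptbp2 did not pass either. Palm, next to Ptbp1, fell from 54.3 ± 4.08 to 29.1 ± 1.85 CPM (-0.90). Plppr3, which overlaps Ptbp1 on the other strand over 4297 bases, had 0 to 20 counts against a mean of 5026 for Ptbp1. Reads shared by both genes may have gone uncounted, and the part of this overlap in the Ptbp1 value was not tested. Within Ptbp2, 2 annotated RNAs on its own strand, Gm43300 and Gm42664, held 32 to 142 counts per library against a mean of 659 for Ptbp2, and reads shared with them may have gone uncounted.

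Profiles most like each member were found by the root mean square difference of centred log2 CPM over the 9 libraries. The search covered 10588 genes with a mean of at least 5 CPM. Genes with symbols of the Gm, Rik or BC kind or similar serial names were left out, so closer profiles among those were not sought. For Firre the closest profiles were Mitf (0.0659), Iba57 (0.0766) and Kcnj5 (0.0783), and Mitf went from 22.8 to 43.8 CPM. For Hnrnpu they were Msrb3 (0.0298), Cct2 (0.0298) and Alg2 (0.0310). For Ptbp1 they were Ninl (0.0301), Tpm3 (0.0360) and Efemp2 (0.0411), with Tpm3 going from 259 to 149 CPM. For Ptbp2 they were Samd8 (0.0520), D16Ertd472e (0.0748) and Cnot6 (0.0752), and for Ptbp3 Ttc39b (0.0488), Soat1 (0.0510) and Atl3 (0.0525). None of these genes is on the lists above. Likeness was least close for Firre and Ptbp2, the members with the fewest counts.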

How the data were processed

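RNA was measured in 9 libraries of isolated mouse cardiomyocytes. Per the labels' protocols, libraries kept strand and followed removal of ribosomal RNA, while another label field names polyA RNA. The submitters' processing notes list STAR and featureCounts beside FastQC and Trimmomatic, on mm10, without versions. The authors deposited raw counts for each Ensembl gene, and which program made them and whether it used strand are not settled. The 5 closing lines, which name no gene (16.3% to 17.4% of counts), were left out.

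Symbols and exon lengths came from GENCODE M21, which matched 55227 of 55487 identifiers, and sequences from its transcripts. Counts were tested with edgeR 4.0.16 in R 4.3.3 (TMM, filterByExpr with minimum count 10 and total 15, robust quasi-likelihood fit, 3 groups in 1 fit with 6 residual degrees of freedom). SE was derived from each log2 fold change and its F statistic. Groups came from sample titles. Ratios were tested by exact permutation. The script was tested on simulated data. Alternatives included limma 3.58.1 and DESeq2 1.42.0. Named genes are the 5 members, up to 3 genes per list with the smallest p, the nearest tested neighbours and the 3 most alike profiles, and others were chosen after their values were seen: Ctcf, Pkm, Tpm1, Mbnl1, Upf1, Raver1, C1qa, Malat1, Neat1 and Atf4. A gene that the rule covers is not reported here. The members and lists were chosen with earlier results of these data known. Reads that align equally to several repeat exons of Firre would be among those not counted, and their number is not known. Transcripts of other genes at least 90% identical over 150 bases were found for Ptbp1 (Gm17134 and Gm4900) and Ptbp3 (1700018M17Rik), with 10, 73 and 32 counts over all libraries.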

Additional observations from a re-analysis of the deposited data

How the results depend on the processing

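Each member's change was recomputed under 17 alternatives: other scalings, no low-count filter, a replicate block, only the groups compared, DESeq2, limma-voom and leaving out each library. Firre, Ptbp1 and Ptbp3 against either control and Hnrnpu against VC kept their direction and call in all 17, with OE_LncFirre over VC log2 changes of 0.91 to 0.998, -0.86 to -0.77, -0.85 to -0.73 and -0.21 to -0.15. The Hnrnpu fall against NC lost its call with DESeq2 size factors (-0.0996), with DESeq2 (-0.0998), with no filter (-0.106), with only the 2 groups (-0.101), with the replicate block (-0.105) and in most fits that left out a library (range -0.149 to -0.0715), with adjusted p from 0.00432 to 0.213 over all alternatives. Ptbp2 gained a call with no filter (-0.19 against VC, -0.21 against NC), and leaving out libraries gave -0.28 to -0.0991 against VC and -0.32 to -0.11 against NC, with adjusted p from 0.0336 to 0.51 and from 0.0096 to 0.446. The 9 genes called between VC and NC became 98 with no filter, 22 with DESeq2, 5 with limma-voom and 0 to 55 with a library left out. The cause was not tested.

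Replicate numbers did not pair the samples (correlations of -0.04 to 0.03), and the block, with 8592, 7 and 8586 genes called against VC, between controls and against NC, changed no other member's call. Library totals alone gave 3685 higher and 5050 lower genes against VC and a median of -0.05. In the lists, 14 hnRNPs, 8 of the CTCF, cohesin and nucleolar list and 4 pyrimidine-tract binders then fell. In the same setting 7 muscle and neuronal regulators rose, and of the other long noncoding RNAs 1 rose and 2 fell. Ptbp2 and Firre had the fewest counts of the members, with 529 in their lowest library. Within groups the SD was 11.5% to 13.8% of the mean for Ptbp2 and 3.17% to 10.25% for Firre. The part of depth in these spreads was not tested.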
